A study of Mus musculus with 4 samples.

Results

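Ovgp1, Gsta3, Hp, Fam107a, Dbpht2 and AU015791 are 6 of the 31053 genes counted in single cells of the neonatal mouse oviduct and uterus. They were picked by name from earlier results of the same libraries, in which their RNA was high in oviduct epithelium and near 0 in uterine epithelium. Their difference between the epithelia of the organs is therefore given here as a description, without a test. The study compared the organs to learn how the upper Müllerian duct, the embryonic tube that forms both, becomes regional. All cells came from untreated wild-type CD1 mice, an outbred stock, at postnatal day 3. The oviduct and the uterus each had 2 libraries, both organs being pooled from 3 or 4 neonates, so a library stands for a pool. A p-value between the organs rests on the spread between pools, estimated with the help of all genes. The tissue was taken apart with DNase I, Collagenase B and Dispase II and read with droplet 3′ sequencing (10x Genomics), in which each captured RNA molecule carries a unique molecular identifier (UMI). The labels describe the cells as mesenchymal and epithelial.

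The epithelium of the oviduct carries multiciliated cells, which move fluid and gametes, and secretory cells, which release the proteins of the tubal fluid. In the adult mouse these cell types are defined in part by FOXJ1, the transcription factor that switches on genes of motile cilia, and by oviductal glycoprotein, the product of Ovgp1. Secretion of oviductal glycoprotein in the adult is known to follow estrogen, while neonatal epithelium is still acquiring both cell types.

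The members differ in what they encode. Ovgp1 encodes the secreted, chitinase-like oviductal glycoprotein, which binds the egg coat and the early embryo. Hp encodes haptoglobin, a secreted acute phase protein that binds free hemoglobin. Gsta3 encodes an alpha class glutathione S-transferase, a cytosolic enzyme that joins glutathione to reactive compounds. Fam107a encodes a stress-responsive protein that associates with actin. Dbpht2 and AU015791 have no described role that is used here. By function, the word secretory thus fits Ovgp1 and Hp and not Gsta3 or Fam107a.

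In the GRCm38 annotation of GENCODE, Ovgp1 lies at chr3:105973711-105987423 on the plus strand, with up to 11 exons. Gsta3 lies at chr1:21240589-21265661 on the plus strand, with up to 8 exons and the antisense gene Gm28836 across it. Hp lies at chr8:109575128-109579172 on the minus strand in 5 exons, and Fam107a at chr14:8296274-8318023 on the minus strand in 3 to 5 exons. Dbpht2 lies at chr12:74296668-74302008 on the plus strand in 1 exon, as a long noncoding RNA in GENCODE and a protein-coding gene in RefSeq. AU015791 lies farther along the same chromosome at chr12:105513480-105515246, also on the plus strand, as a noncoding RNA of 2 exons. Within the last 500 bases of its transcripts, where 3′ reads fall, Ovgp1 shared 40.1% of its 50-base words with the overlapping transcript Gm42890 on the same strand, which was not among the genes counted. Reads from the shared stretch could not be told apart, so the level called Ovgp1 may include Gm42890. The other 5 members shared 0 such words with any other gene.

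The bases just upstream of Ovgp1 and Gsta3, the members with the highest levels, show what stands before their starts. They come from RefSeq's GRCm38.p6 promoter windows, in which 4 of the 6 members were found, and only bases before the first annotated transcript start are printed. The capitals mark GGTCA, the core of the sites that estrogen receptors and other nuclear receptors bind, found here on the printed strand. The Ovgp1 stretch is chr3:105973552-105973710 and the Gsta3 stretch is chr1:21240335-21240564, both on the plus strand.

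Ovgp1: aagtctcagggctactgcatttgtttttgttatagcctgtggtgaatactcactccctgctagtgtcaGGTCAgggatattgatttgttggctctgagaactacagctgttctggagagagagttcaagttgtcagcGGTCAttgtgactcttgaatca
Gsta3: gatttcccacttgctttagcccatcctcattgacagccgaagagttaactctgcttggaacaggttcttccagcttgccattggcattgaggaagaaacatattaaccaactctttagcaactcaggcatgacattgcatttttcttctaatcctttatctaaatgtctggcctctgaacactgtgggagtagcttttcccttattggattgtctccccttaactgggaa

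The Ovgp1 stretch held 2 copies of GGTCA and the Gsta3 stretch 0. Of 32851 promoter windows of 250 bases, 35.2% held these letters on at least 1 strand. TGTTTA, the core that forkhead factors such as FOXJ1 and FOXA2 bind, was in neither stretch on either strand, against 12% of all windows. These are matches of letters, not bound sites.

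After filtering, the oviduct libraries kept 6488 and 5524 cells, the uterine ones 3872 and 4280. The called barcodes held between 61117726 and 114419939 UMIs per library. The filters removed 11.4% and 13.8% of oviduct barcodes but 29.0% and 28.7% of uterine barcodes. Pairs of libraries shared 5 to 10 kept barcodes. A cell was assigned to epithelium when at least 4 of 12 markers (Epcam, Cdh1, keratins, claudins and others) exceeded what free RNA could give. That share of the list also had to be above every other class's share by at least 0.1, after a handicap of -0.25 on the mesenchyme share. Of cells assigned to epithelium, 463 of 466 also fell into clusters named epithelium, which held a further 378 cells that the rule left without a class. Oviduct epithelium comprised 128 and 225 cells per library at median depths of 24633 and 18731 UMIs. Uterine epithelium comprised 50 and 63 cells and was shallower, with medians of 5279 and 2588 UMIs. All 12 markers were detected in every library's epithelium, with a summed level of 4717 to 5779 UMIs per 1000000 UMIs of the class (CPM).

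Oviduct 1 held cells that stood apart from the other oviduct epithelium. A cluster that held 96.5% and 96.3% of uterine epithelial UMIs also took 20 epithelial cells of oviduct 1, with 11.3% of that library's epithelial UMIs, and 10 cells of oviduct 2, with 0.745%. In oviduct 1, 5 of these cells had 65996 to 242355 UMIs each, or 711753 together, of which 1 UMI belonged to any member and 0 to Foxj1. It is called the mainly uterine cluster here, after its epithelial UMIs. Counting also the cells that the marker rule did not class as epithelium, it held 87 and 57 oviduct and 42 and 31 uterine cells. The labels of the 20 cells say oviduct. Without the oviduct cells of this cluster, an alternative added after seeing them, the members stood at 159.3 and 122.8 CPM (Ovgp1), 81.1 and 69.9 (Gsta3), 58.9 and 32.9 (Hp), 47.4 and 54.1 (Fam107a), 32.1 and 59.6 (Dbpht2) and 48.1 and 47.5 CPM (AU015791) in oviduct epithelium. The values below include these cells unless they say otherwise.

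Ovgp1 had the highest level of the 6 in oviduct epithelium. It stood at 141.6 and 122.3 CPM in the oviduct libraries, from 970 and 1017 UMIs, and at 0.773 and 1.48 CPM in the uterine libraries, from 1 and 3 UMIs. The mean over the oviduct libraries was 132 ± 13.7 CPM (SD, n = 2). Over pooled counts the oviduct level was 109 times the uterine one, with a 95% counting interval of 42.5 to 400 (169, 30.4 to 6695, without uterus 2). CPM here is a gene's share of all UMIs in the cells of a class and is not divided by gene length, since 3′ reads count ends of molecules.

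Gsta3, at 72.3 and 69.4 CPM in oviduct epithelium, had 0 UMIs in the epithelium of either uterine library. Its mean was 70.8 ± 2.06 CPM (SD, n = 2), the smallest spread of the 6. Set against a limit of 3 UMIs over the pooled uterine epithelium, which is 0.902 CPM, the oviduct level was at least 78.3-fold higher. Uterus 2 set much of this bound, as of those that follow: with it left out the limit was 2.32 CPM, and the bounds fell to 30.5-fold for Gsta3, 18.0-fold for Hp, 20.9-fold for Fam107a and 19.6-fold for Dbpht2. Without uterus 1 the limit was 1.48 CPM and the bounds were 47.9-, 28.3-, 32.9- and 30.9-fold. Most uterine epithelial UMIs came from 11 and 14 deep cells of the 2 libraries, with 982131 and 1707414 UMIs. Gsta3 was also the member found in the most oviduct epithelial cells, with a UMI in 62.5% and 63.1% of them.

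Hp was at 52.6 and 32.8 CPM in oviduct epithelium (mean 42.7 ± 14.0, SD, n = 2) and had 0 UMIs in uterine epithelium, so it was at least 46.3-fold higher. It was found in the fewest cells, with a UMI in 35.9% and 27.6% of the oviduct epithelial cells. Fam107a was at 42.3 and 53.7 CPM (mean 48.0 ± 8.06) and also at 0 UMIs in uterine epithelium, which makes it at least 53.9-fold higher. The order of Hp and Fam107a was not the same in the 2 oviduct libraries.

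Dbpht2 varied most between the oviduct libraries, at 28.8 and 59.4 CPM (mean 44.1 ± 21.7, SD, n = 2), and had 0 UMIs in uterine epithelium, which makes it at least 50.5-fold higher, or 31.9-fold without oviduct 2. AU015791 was at 43.5 and 47.5 CPM (mean 45.5 ± 2.81) in oviduct epithelium. In the uterus it had 1 UMI in 1 library and 0 in the other, a pooled ratio of 152 with a counting interval of 27.2 to 6009 (59.1, 10.6 to 2337, without uterus 2). Without uterus 1, which held that UMI, it was at least 30.9-fold higher. In both libraries the order was led by Ovgp1, then Gsta3. The other four followed at 28.8 to 59.4 CPM, and their order there did not differ beyond the spread between libraries. These intervals and limits cover counting error only.

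**Figure D1:**
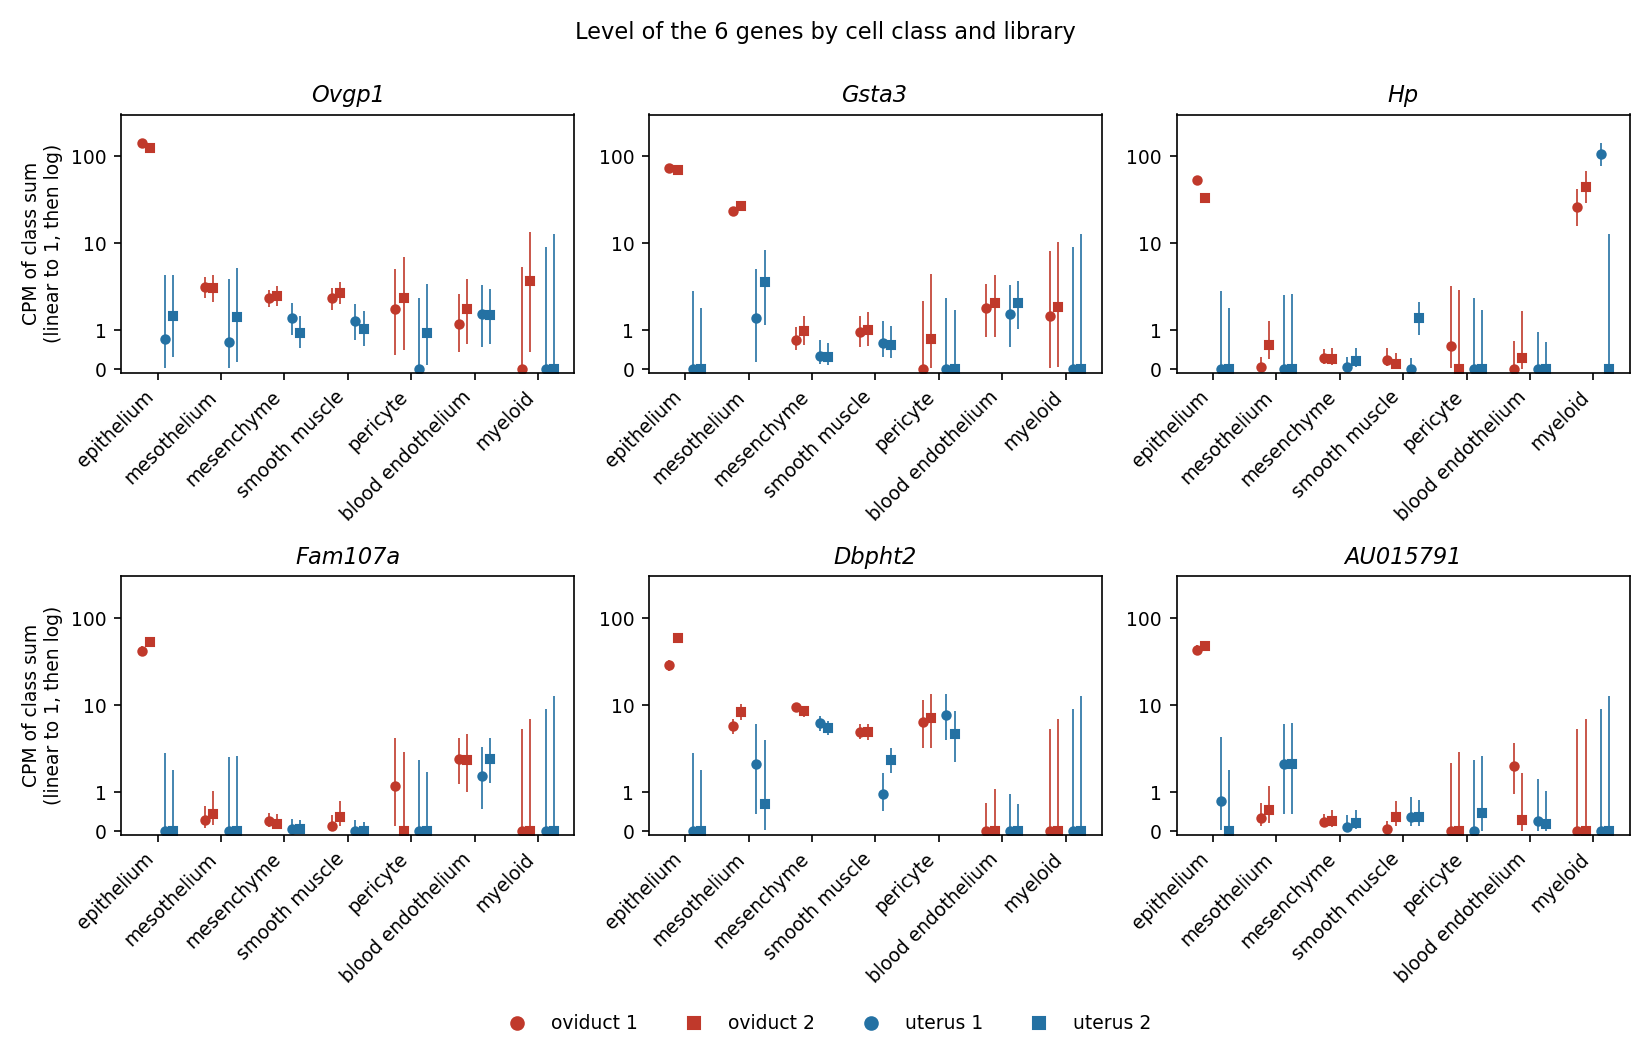
Level of each member (CPM of the summed UMIs of a class, axis linear up to 1 and logarithmic above) in every cell class and library, with exact 95% Poisson intervals for counting error. In epithelium the oviduct points lie between 28.8 and 141.6 CPM for all 6 members and the uterine points lie at 0 to 1.48 CPM; Gsta3 in mesothelium is the next clear gap between the organs.

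The shares of cells with a UMI were set against blood endothelium, a class of like depth that is not known for these genes and takes up free RNA from broken cells. Ovgp1 had a UMI in 48.4% and 45.3% of oviduct epithelial cells and in 3.19% and 4.41% of oviduct blood endothelial cells, whose median depths were 18122 and 13917 UMIs. For Gsta3 the endothelial shares were 5.73% and 4.41%, for Fam107a 7.01% and 5.88%, and Dbpht2 had 0 UMIs in the blood endothelium of all 4 libraries. In empty droplets of the oviduct libraries, the free RNA itself, the members were at 4.09 to 12.1 CPM, well under their epithelial levels. In the uterine empty droplets they were at 0 to 3.09 CPM, Hp being the highest. Uterine blood endothelium had Fam107a at 1.53 and 2.43 CPM and Gsta3 at 1.53 and 2.06 CPM, above their free RNA there (0.211 and 0.0883 CPM, 0.528 and 0.618 CPM), from 6 to 13 UMIs. In the oviduct libraries both genes were below their free RNA in this class. The source of these UMIs was not tested.

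To compare cells of unequal depth, each was thinned to 5000 UMIs, which left 103 and 163 oviduct epithelial cells and set aside 25 and 62 shallower ones. The share with a Gsta3 UMI was then 26.2% and 32.5%, and with an Ovgp1 UMI 25.2% and 28.8%. Hp was at 13.6% and 11.04%. In the thinned uterine epithelium, with 27 and 24 cells, 1 cell had a UMI of a member.

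**Figure D2:**
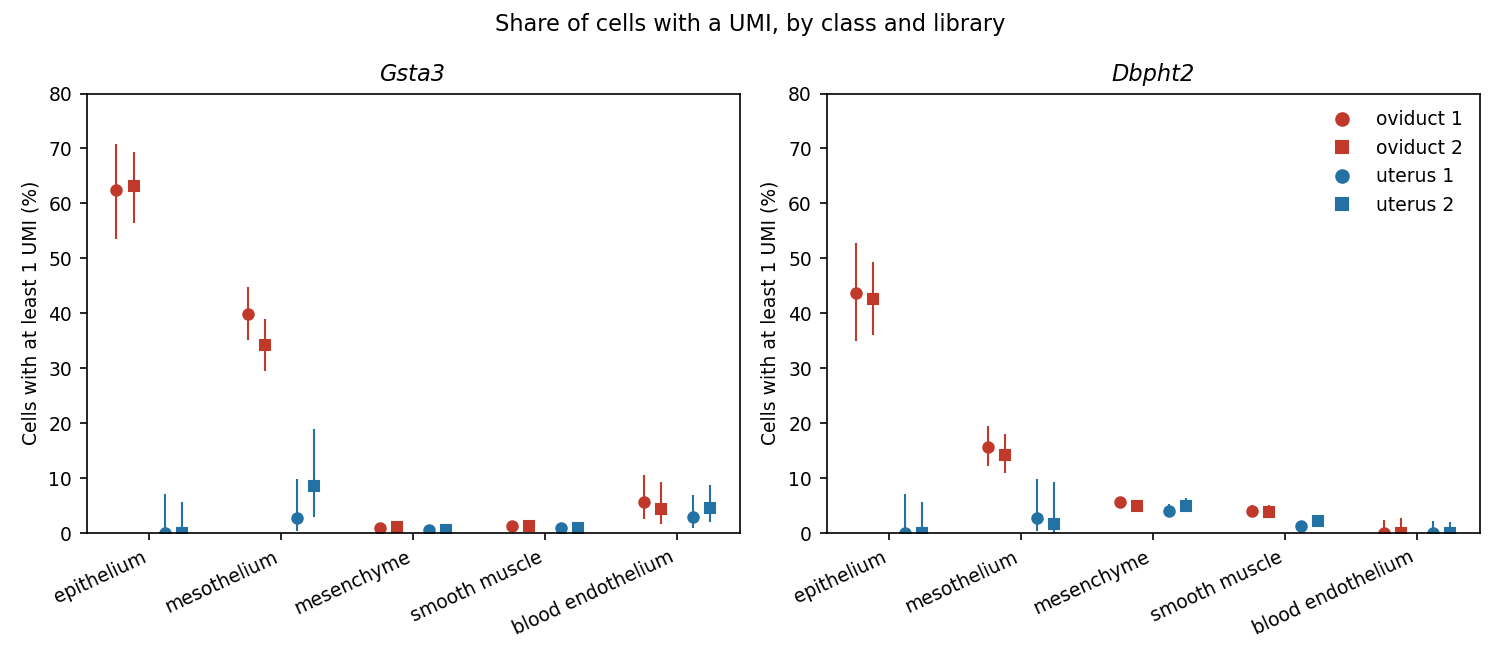
Percent of cells with at least 1 UMI of Gsta3 and of Dbpht2 by class and library, with exact 95% binomial intervals for counting error. Gsta3 reaches 62.5% and 63.1% in oviduct epithelium and 39.9% and 34.2% in oviduct mesothelium, while Dbpht2 is at 0 in blood endothelium.

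Within a library the RNA of the members was concentrated in few cells. The 10 cells richest in Ovgp1 held 66.8% of its epithelial UMIs in oviduct 1 and 45.5% in oviduct 2, and single cells reached 164 and 81 UMIs. For Hp the 10 richest cells held 73.9% and 50.9%. The other members were spread more evenly, from 45.5% (Fam107a) to 63.4% (AU015791) in oviduct 1. In oviduct 2 they ranged from 29.1% (Gsta3) to 42.0% (AU015791), with Fam107a at 32.9%. These shares are over cells of unequal depth.

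At equal depth most thinned epithelial cells had UMIs of few members at once. Thinning itself lowers such counts, since a cell can lose all its UMIs of a member. Gsta3 had a UMI in 62.5% and 63.1% of oviduct epithelial cells before thinning and in 26.2% and 32.5% of the thinned ones. The number of members per thinned cell therefore cannot show whether the members lay in separate cells. Of the thinned oviduct 1 cells, 34 had UMIs of none, 31 of 1 member, 24 of 2, 10 of 3, 3 of 4 and 1 of 5. In oviduct 2 these numbers were 42, 53, 40, 21, 6 and 1. No thinned cell had all 6. Cells with both Ovgp1 and AU015791 numbered 31 over the 2 libraries, against 15.1 if the genes had been placed independently within each library. Cells with both Ovgp1 and Dbpht2 numbered 26, against 14.7. The Hp and AU015791 pair had 3 cells against 6.61, of which oviduct 1 gave 0 against 2.85 and oviduct 2 gave 3 against 3.75, and Ovgp1 and Gsta3 met in 22 cells against 22.1. These 15 pairs are described without a test, since cells of a library are not replicates.

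Clusters gave a second view of where the members lay. Apart from the cells in the mainly uterine cluster, oviduct epithelium fell into a larger deep cluster (66 and 109 cells), a smaller deep cluster (16 and 37 cells) and a shallow cluster (24 and 68 cells), with 2 and 1 cells elsewhere. By the difference between them, and leaving out the members and predicted, Rik, mitochondrial, ribosomal and hemoglobin genes, the larger was led by Wt1, BC048679, Rgs10, Gata6 and Ltf, and the smaller by Ckb, Lgi1, Thrsp, Snhg11 and Igfbp5. Genes of cilia were also among the 15 that led the larger one, Dynlrb2 at 71.0 and 30.7 CPM against 0.814 and 0.430 CPM and Fam183b at 74.8 and 13.6 CPM against 0 and 0.430 CPM. Both were picked by their difference. Of a list of multiciliated cell genes without Foxj1, cells of the larger cluster had on average 4.38 and 4.01 detected. Cells of the smaller cluster had 3.25 and 2.65, at unequal depths. Neither is given a cell type name, and 0 uterine cells fell into them. The members were left out of the genes used to form the clusters. The differences between clusters were not tested and are descriptions.

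Ovgp1 and Dbpht2 were at similar levels in both deep clusters. Ovgp1 was at 161.6 and 118.1 CPM in the larger and 158.0 and 144.0 CPM in the smaller cluster. Dbpht2 was at 31.9 and 58.7 CPM against 34.2 and 67.0 CPM. For both genes the ranges of the clusters overlapped over the 2 libraries.

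The shallow cluster gave few UMIs, between 2 and 28 per member and library. There Ovgp1 was at 121.7 and 35.8 CPM, Gsta3 at 81.1 and 111.4, Hp at 27.0 and 43.8, Fam107a at 27.0 and 59.7, Dbpht2 at 27.0 and 11.9 and AU015791 at 13.5 and 11.9 CPM. AU015791 had 2 and 3 UMIs there, with counting intervals of 1.64 to 48.8 and 2.46 to 34.9 CPM. These lay below its intervals in the smaller deep cluster and overlapped those in the larger one.

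Among the members, Hp, Gsta3 and AU015791 differed most between the deep clusters, and Fam107a, given below, differed less without overlap. Hp was at 75.5 and 46.0 CPM in the larger cluster and had 0 UMIs in the smaller one, among 1228064 and 2327200 UMIs, where 3 UMIs would be 2.44 and 1.29 CPM. By the difference between clusters, ranked from the lowest of 6973 genes, Hp had rank 3, Gsta3 179, Fam107a 403 and AU015791 6833. Gsta3 was at 91.9 and 84.4 CPM in the larger cluster and 41.5 and 30.1 CPM in the smaller. AU015791 went the opposite way, at 35.3 and 30.8 CPM in the larger and 101.8 and 92.0 CPM in the smaller cluster.

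Fam107a was at 52.4 and 60.6 CPM in the larger cluster and 31.8 and 37.8 CPM in the smaller. Foxj1 was at 80.2 and 79.1 CPM in the larger and 31.8 and 18.0 CPM in the smaller, so cells with Foxj1 UMIs were present in both. Lcn2 and C3, genes of secreted defence proteins, were higher in the same cluster as Hp. Lcn2, which encodes the iron-binding lipocalin of mucosal defence, was at 91.5 and 95.2 CPM against 8.14 and 11.2 CPM, and C3, the central complement component, was at 361.9 and 342.8 CPM against 30.9 and 29.6 CPM.

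**Figure D3:**
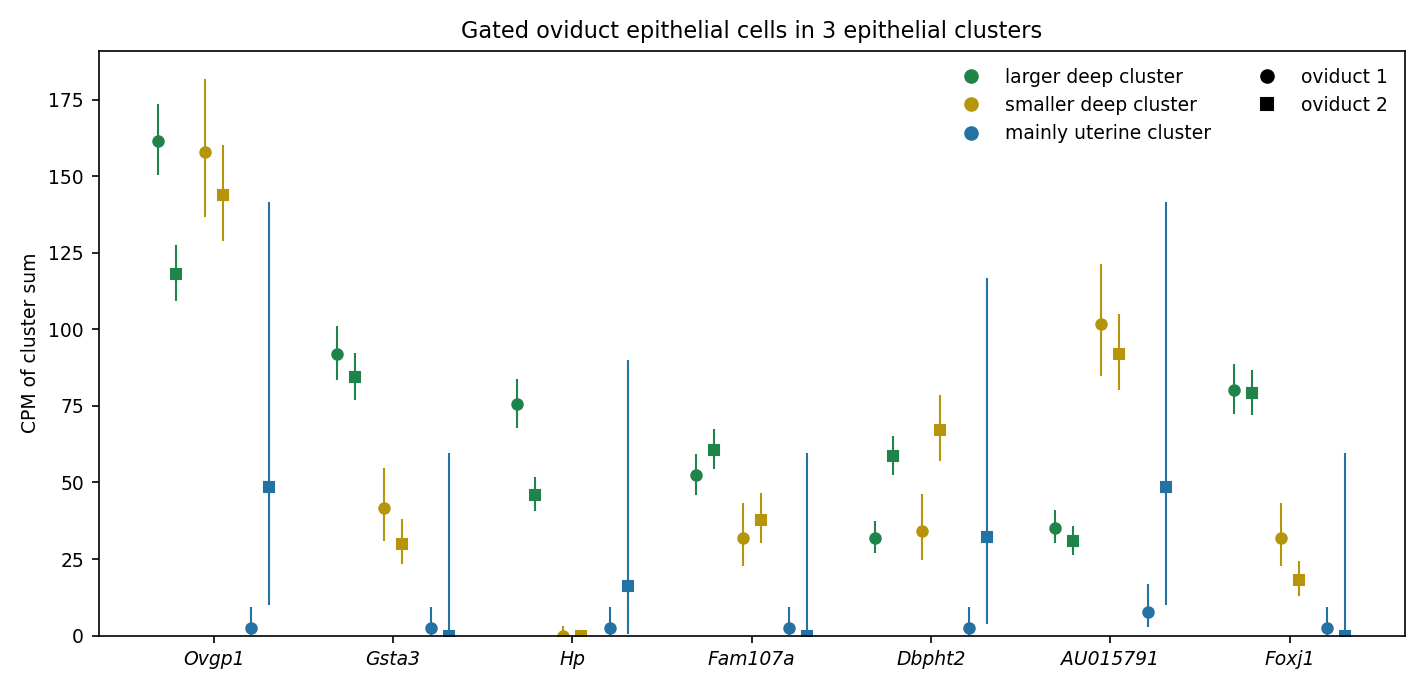
Level (CPM, with exact 95% Poisson intervals) of each member and of Foxj1 in the oviduct cells of 3 epithelial clusters, by oviduct library. Hp lies at 75.5 and 46.0 CPM in the larger deep cluster and at 0 in the smaller one, AU015791 has the reverse order, and Ovgp1 is alike in both.

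Whether the members lay in cells with or without Foxj1 UMIs was asked by a split within the oviduct libraries. The members had been picked from earlier results of these same libraries, so the p-values below do not come from independent data. With the library as a block and 2 libraries, they and the standard errors (SE) draw on a spread shared over genes. They can be small even where the 2 libraries differ for a gene, so the libraries are also given singly. Cells with at least 1 Foxj1 UMI numbered 50 and 81 in the oviduct libraries, with median depths of 71811.5 and 39849 UMIs. Cells without it numbered 78 and 144, with medians of 11179 and 7206 UMIs. The groups thus differed in depth as well, and markers of mesenchyme summed to 159 and 120 CPM without Foxj1 and 51.6 and 59.2 CPM with it. The part of these differences in the results below was not tested, apart from the thinned cells. edgeR called 334 of 11649 genes (2.87%) at an adjusted p under 0.05, of which 203 (1.74%) were higher with Foxj1. Among the members 2 of 6 were called, Hp and AU015791.

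Ovgp1, the gene that marks secretory cells in the adult, was present on both sides. It was at 153.3 CPM with and 112.3 CPM without Foxj1 in oviduct 1, and at 115.1 and 141.7 CPM in oviduct 2. The libraries thus had opposite orders, with a log2 difference of 0.11 ± 0.20 (SE) and an edgeR adjusted p of 0.906. Splitting by the list of multiciliated cell genes in place of Foxj1, it was called as higher, at 0.97 (edgeR adjusted p = 0.0428). Gsta3 had the same pattern, at 80.8 and 50.8 CPM in oviduct 1 and 64.9 and 81.3 CPM in oviduct 2 (log2 difference 0.19 ± 0.21, edgeR adjusted p = 0.831).

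Hp was higher in cells with Foxj1. It was at 69.2 CPM with and 10.8 CPM without Foxj1 in oviduct 1, and at 34.8 and 27.5 CPM in oviduct 2, where the counting intervals of 30.2 to 39.8 and 21.1 to 35.3 CPM overlapped. The log2 difference was 1.39 ± 0.28 (edgeR adjusted p = 0.000574). It was 2.79 in oviduct 1 alone and 0.34 in oviduct 2 alone, so the size of the difference rested on oviduct 1. Without the cells of the mainly uterine cluster it was 1.03 (edgeR adjusted p = 0.000686). With cells thinned it was 1.36 (edgeR adjusted p = 0.384), and within the larger deep cluster 0.84 (edgeR adjusted p = 0.261), so the call was lost there with the direction unchanged. DESeq2 did not call it, at an adjusted p of 1.00 and a log2 difference of 1.53. Splitting by a list of multiciliated cell genes in place of Foxj1 gave 0.70 (edgeR adjusted p = 0.323), and scaling by library totals 1.36 (edgeR adjusted p = 0.137). Of 11 alternatives with a test, 6 called Hp.

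AU015791 passed narrowly. In oviduct 1 it was at 52.9 CPM with Foxj1 and had 39 of 1949918 UMIs without it, a counting interval of 14.2 to 27.3 CPM. In oviduct 2 it was at 49.5 and 42.2 CPM (log2 difference 0.78 ± 0.24, edgeR adjusted p = 0.0489). Without the cells of the mainly uterine cluster the difference was 0.45 (edgeR adjusted p = 0.187), and with cells thinned it was -0.021 (edgeR adjusted p = 0.997).

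Fam107a and Dbpht2 were not called. Fam107a was at 48.4 and 27.2 CPM in oviduct 1 and 54.9 and 50.6 CPM in oviduct 2 (log2 difference 0.47 ± 0.22, edgeR adjusted p = 0.356). Dbpht2 was at 33.3 and 17.4 CPM in oviduct 1 and 58.0 and 63.1 CPM in oviduct 2 (0.33 ± 0.23, edgeR adjusted p = 0.679). Within a library, Fam107a was higher with Foxj1 in both. In oviduct 2 its counting intervals of 49.2 to 61.1 and 41.8 to 60.8 CPM overlapped. Dbpht2 had opposite orders in the 2 libraries.

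Of the mainly uterine cluster, 2 of the 20 cells in oviduct 1 and 0 of the 10 in oviduct 2 had a Foxj1 UMI, so most lay on the side without it. When they were left out, Ovgp1 in oviduct 1 was at 153.6 CPM with and 183.0 CPM without Foxj1, and in oviduct 2 at 115.1 and 144.3 CPM. It was then lower with Foxj1 in both libraries, at a log2 difference of -0.29. Gsta3 was at 80.8 and 82.7 CPM in oviduct 1 and 64.9 and 83.6 CPM in oviduct 2, a difference of -0.21. Neither was called. This comparison was added after the cells had been seen.

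**Figure D4:**
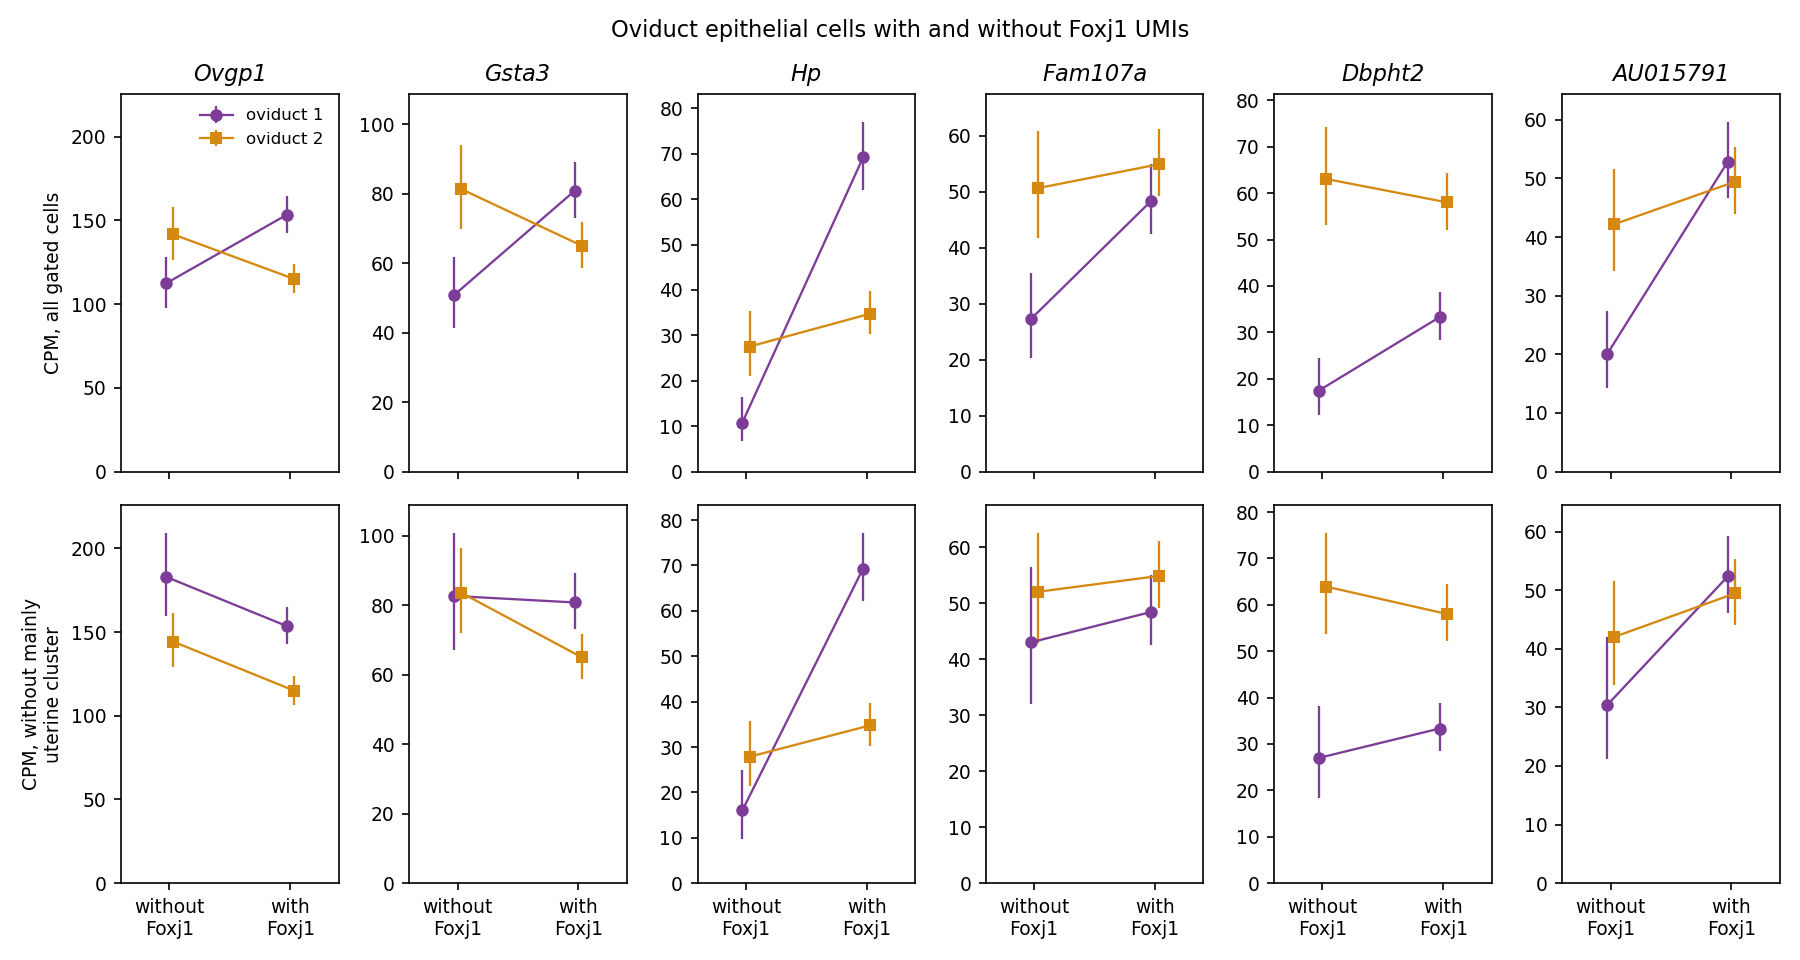
Level (CPM, with exact 95% Poisson intervals) of each member in oviduct epithelial cells with and without Foxj1 UMIs, by library, over all epithelial cells (top) and without the mainly uterine cluster (bottom). Hp in oviduct 1 has the widest gap, 69.2 against 10.8 CPM over all cells, and Ovgp1 in oviduct 1 changes its order between the panels.

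Outside the epithelium, the organs were compared class by class. Here too the libraries were those from which the members had been picked, so the p-values do not come from independent data. Mesothelium, the cell sheet that covers both organs, had the largest difference among the members. Gsta3 was at 23.3 and 26.5 CPM in oviduct mesothelium (416 and 407 cells, from 423 and 295 UMIs) and at 1.39 and 3.55 CPM in uterine mesothelium (71 and 58 cells, from 2 and 5 UMIs). The groups did not overlap, the log2 difference was 3.32 ± 0.36 and edgeR's adjusted p was 0.000158. It was called in all 11 alternatives, DESeq2 and the omission of each library included, at 2.81 to 4.15. These alternatives reuse the same libraries, and its oviduct counts could make it testable where uterine ones were few. They are therefore no independent support. In that class edgeR called 7.77% of 12735 genes, 4.47% as higher in the oviduct, and 2 of the 4 members tested.

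A Gsta3 UMI was found in 39.9% and 34.2% of oviduct mesothelial cells and in 2.82% and 8.62% of uterine ones. The oviduct cells had median depths of 24521 and 17217 UMIs, the uterine cells 14549 and 21355. Gsta3 in empty droplets was at 6.35 and 12.1 CPM in the oviduct and 0.528 and 0.618 CPM in the uterus, each below its mesothelial level in the same library. Ovgp1, more abundant than Gsta3 in epithelium, was at 3.13 CPM in mesothelial cells with a Gsta3 UMI and 3.15 CPM in those without in oviduct 1, and at 2.81 and 3.30 CPM in oviduct 2. Epcam, the epithelial adhesion molecule, was at 40.1 and 35.7 CPM in oviduct mesothelium and 18.8 and 13.5 CPM in uterine mesothelium, against 980.1 and 913.4 CPM in oviduct epithelium. All 12 epithelial markers together summed to 1205 and 1134 CPM in oviduct mesothelium and 867.5 and 842.3 CPM in uterine mesothelium, with 11 of the 12 detected in each oviduct library (Esrp1 at 0) and 9 in each uterine one. The part of free RNA and of epithelial cells in the Gsta3 difference was not tested.

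Dbpht2 was also higher in oviduct mesothelium, at 5.78 and 8.35 CPM against 2.09 and 0.709 CPM (log2 difference 2.29 ± 0.60, edgeR adjusted p = 0.0398). The call was lost with DESeq2 (adjusted p = 0.138) and without uterus 2 (edgeR adjusted p = 0.131). Ovgp1 was at 3.14 and 3.05 CPM in oviduct and 0.697 and 1.42 CPM in uterine mesothelium and was not called (1.54 ± 0.68, edgeR adjusted p = 0.223). AU015791 had 6 UMIs in each oviduct library and 3 in each uterine one, or 0.330 and 0.539 against 2.09 and 2.13 CPM (-2.31 ± 0.84, edgeR adjusted p = 0.133). Hp and Fam107a were too low there to be tested.

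In mesenchyme and smooth muscle the members were low and the organs differed in many genes. edgeR called 37.1% of 14543 genes in mesenchyme and 34.1% of 13949 in smooth muscle (20% and 18.2% as higher in the oviduct). All 3 members tested in mesenchyme and 2 of 3 in smooth muscle were called, against these high backgrounds. The marker rule and the clusters differed for smooth muscle. Of 4649 cells that the rule put there, 1977 fell into clusters named smooth muscle, 1953 into clusters named mesenchyme and 667 into unnamed ones. Dbpht2 was at 9.49 and 8.53 CPM in oviduct mesenchyme and 6.21 and 5.50 CPM in uterine mesenchyme (log2 difference 0.59 ± 0.14, edgeR adjusted p = 0.00578). In smooth muscle it was at 4.97 and 4.94 CPM against 0.967 and 2.37 CPM (1.48 ± 0.31, edgeR adjusted p = 0.00354). Both calls held in 11 of 11 alternatives, and the groups did not overlap. Most mesenchymal cells of the organs lay in different clusters, however. By marker class, 1 mesenchyme cluster had at least 20 cells in every library, and it held 3.33% of oviduct and 23.1% of uterine mesenchymal cells. In that cluster the order was the other way, with Dbpht2 at 7.30 and 8.17 CPM in the oviduct and 9.73 and 11.9 CPM in the uterus, from 9, 9, 35 and 49 UMIs. In smooth muscle, 2 clusters met that number of cells, with at most 3 Dbpht2 UMIs per library in either. Ovgp1 and Gsta3 had at most 5 UMIs per library in the shared mesenchyme cluster. The organ differences in these classes therefore compare unlike sets of clusters.

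Ovgp1 was at 2.32 and 2.50 CPM in oviduct mesenchyme and 1.38 and 0.934 CPM in uterine mesenchyme (log2 difference 1.03 ± 0.27, edgeR adjusted p = 0.0109). In smooth muscle it was at 2.32 and 2.71 CPM against 1.27 and 1.03 CPM (1.09 ± 0.30, edgeR adjusted p = 0.0151). These calls were lost with DESeq2 (adjusted p = 0.0867 and 0.121) and without uterus 2 (edgeR adjusted p = 0.0920 and 0.0794), and in smooth muscle also without oviduct 2 (edgeR adjusted p = 0.0697) and with classes from clusters (edgeR adjusted p = 0.0892). Gsta3 in mesenchyme was under 1 CPM in all 4 libraries, at 0.755 and 0.976 against 0.345 and 0.311 CPM (1.33 ± 0.42, edgeR adjusted p = 0.0270). That call was lost with DESeq2 (adjusted p = 0.222) and without oviduct 2, uterus 1 or uterus 2 (edgeR adjusted p = 0.137, 0.120 and 0.151). Free RNA moved in the same direction, since Ovgp1 in empty droplets was at 10.7 and 11.8 CPM in the oviduct and 0.740 and 1.24 CPM in the uterus. Its part in these low levels was not tested. Epithelial markers summed to 61.2 and 78.5 CPM in oviduct mesenchyme and 76.5 and 84.5 CPM in uterine mesenchyme.

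Outside the epithelium, Hp was found in a few myeloid cells of both organs. In the myeloid class it was at 26.3 and 44.7 CPM in the oviduct and 105.9 and 0 CPM in the uterus, from 18, 24, 43 and 0 UMIs. Few cells carried it, namely 2, 4, 7 and 0 of them, and 1 cell of oviduct 1 held 14 of the 18 UMIs. The groups overlapped (log2 difference -0.74 ± 0.92, edgeR adjusted p = 0.945), and 0.102% of 5855 genes were called there. The myeloid cluster, formed without the class rule, held 21, 24, 49 and 42 Hp UMIs in the 4 libraries, in 3, 4, 8 and 5 cells. The richest cell of each held 14, 12, 19 and 21 of them. In uterus 2 all 42 came from cells that the marker rule had put into smooth muscle (22 UMIs) or into no class (20 UMIs), so the 0 holds for the marker rule alone. This cluster held 96.1% and 80.8% of the uterine Hp UMIs outside epithelium and 53.8% and 54.5% of those in the oviduct libraries.

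Fam107a was tested only in blood endothelium, at 2.38 and 2.36 CPM in the oviduct and 1.53 and 2.43 CPM in the uterus (log2 difference 0.24 ± 0.51, edgeR adjusted p = 0.931), where 2.82% of genes were called. Dbpht2 in pericytes, the contractile cells of small vessels, was at 6.42 and 7.09 CPM against 7.71 and 4.67 CPM (0.11 ± 0.48, edgeR adjusted p = 0.944), where 5.86% were called. In both classes the organs overlapped. Over the 6 classes, 13 comparisons of a member could be tested, 7 were called and all 7 were higher in the oviduct. Of these, 5 came from mesenchyme and smooth muscle, with backgrounds of 37.1% and 34.1%, and 2 from mesothelium, with 7.77%. Members too low in a class were not tested, and some called ones had few uterine UMIs. In mesothelium Gsta3 counted 423 and 295 oviduct UMIs to 2 and 5 uterine, and Dbpht2 105 and 93 to 3 and 1. AU015791 in mesothelium and Hp in myeloid cells were tested, lower in the oviduct and not called. The shared direction of the 7 calls is a description, as oviduct counts could make a member testable where uterine ones were few.

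Lists of related genes, chosen with earlier results of these data known, place the members among their pathways. In epithelium edgeR called 24.4% of 12128 genes between the organs, 14.8% as higher and 9.52% as lower in the oviduct, with a median log2 difference of 0.0089 over all genes. Scaling by library totals moved that median to -0.13, and the share of calls that were higher in the oviduct fell from 60.9% to 45.7%. Libraries of uterine epithelium were shallower, and a list's count is a description. Without the oviduct cells of the mainly uterine cluster, 3086 genes were called. The acute phase list then had 9 members higher, glutathione enzymes 9, multiciliated genes 13, the estrogen list 3 lower and the secretory list 3 lower, Krt7 losing its call (edgeR adjusted p = 0.0593), while Chil1 was too low to be tested.

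Of genes tied to secretion in the tract, 8 of the 17 tested rose in the oviduct and 4 fell (median 1.16). C3 was at 257.3 and 245.4 CPM in oviduct epithelium and 1.55 and 0 CPM in uterine epithelium, a ratio of 417 with a counting interval of 115 to 3444. The uterine UMIs behind that ratio all came from uterus 1. Ltf, which encodes lactoferrin, was at 54.5 and 36.3 CPM against 0 and 0.492 CPM. Lcn2 rose as well (log2 difference 3.67 ± 0.26, edgeR adjusted p = 7.68e-09), and Wfdc1, a protease inhibitor, was at least 12.1-fold higher. Wfdc2, another secreted protease inhibitor of this family, fell by 1.38 on the log2 scale, from 6092 and 6646 CPM in the uterus to 2575 and 1858 CPM in the oviduct. Upk1a, Krt7 and Sox17 fell by 2.08, 0.52 and 0.51. Genes of the list thus moved in both directions between the organs.

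Among Gsta3's relatives, 8 of the 24 glutathione enzymes tested rose and 0 fell (median 0.52). Gstm2, a mu class transferase, was at 477.3 and 385.5 CPM in the oviduct against 127.6 and 161.9 CPM in the uterus (log2 difference 1.70 ± 0.20, edgeR adjusted p = 3.68e-06). Gpx2, Mgst2 and Hpgds were low, with pooled ratios of 13.2, 7.78 and 6.58. Of the chitinase-like family of Ovgp1, 3 genes were tested and Chil1 rose, at 2.34 and 5.05 CPM against 0.773 and 0.492 CPM.

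Of acute phase and haptoglobin-related genes, 8 of the 10 tested rose and 0 fell (median 2.41). Socs3, a feedback inhibitor of cytokine signalling, was at 282.3 and 310.2 CPM against 48.7 and 35.4 CPM (log2 difference 2.98 ± 0.21, edgeR adjusted p = 7.13e-09). Cebpb, a transcription factor of the acute phase response, was at 493.8 and 468.7 CPM against 115.2 and 84.7 CPM (2.42 ± 0.20, edgeR adjusted p = 4.08e-08). Socs3 and Cebpb were also among the genes that led a mesenchyme cluster, with Btg2, Nr4a1, Junb and Fosb. That cluster held 690 and 712 oviduct cells and 1 and 2 uterine cells. What the epithelial rise shares with it was not tested. C3, Cp and Lcn2 stand in both this list and the secretory one.

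Of estrogen receptor and response genes, 6 of the 10 tested rose and 2 fell (median 2.23). Ltf, C3 and Lcn2, already counted in the secretory list, were among the 6 that rose. Esr1, the main estrogen receptor of the tract, was at 59.9 and 87.6 CPM against 3.87 and 7.87 CPM (log2 difference 3.69 ± 0.31, edgeR adjusted p = 5.18e-08). Foxa2, a forkhead factor of gland and tubal epithelium, was at least 16.8-fold higher. Pgr, the progesterone receptor, and Greb1 fell by 1.57 and 1.30 on the log2 scale. Genes called in both directions were thus in the list, Esr1 and Pgr among them.

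Multiciliated cell genes rose in 14 of 17 tested (median 4.32, or 3.47 with the 6 genes at 0 in the uterus set at their bound). Dynlrb2, a dynein light chain, was at 48.9 and 21.2 CPM in the oviduct and 0 UMIs in the uterus, at least 37.3-fold higher, and Fam183b, Ccdc153 and Deup1 were at least 31.3-, 16.2- and 14.8-fold higher. These bounds pool the oviduct libraries, and those of Dynlrb2 and Fam183b leaned on oviduct 1. In the larger deep cluster Fam183b was at 74.8 CPM in oviduct 1 and 13.6 CPM in oviduct 2. Of Fam107 and actin-bundling genes, Espn rose (1.04) and 4 of 8 fell, Fscn1 most (fell by 1.71) and then Pls3, Actn4 and Fam107b, the paralog of Fam107a (fell by 0.63).

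Across the Foxj1 split, multiciliated cell genes were higher with Foxj1 in 15 of 17 tested (median 3.35), a list that holds Foxj1 itself. Over all genes tested, edgeR called 2.87%, 1.74% as higher with Foxj1, with a median of 0.0089. Of the secretory list 3 of 16 rose, namely Clu (1.30 ± 0.25, edgeR adjusted p = 0.000298), C3 (0.91 ± 0.22, edgeR adjusted p = 0.00599) and Cp (0.87 ± 0.20, edgeR adjusted p = 0.00308), and 0 fell. With cells thinned to equal depth, C3 turned to -0.034, and Clu (0.43) and Cp (0.16) kept their direction with none of the 3 called. Of the acute phase list 2 of 9 rose (C3 and Cp), and of the estrogen list 2 of 10 (Foxa2 and C3). Glutathione enzymes had 0 of 24 called by edgeR and the chitinase-like family 0 of 4. The single actin-bundling gene called was Fscn1, which fell by 1.47 and, without the mainly uterine cluster, by 0.30 with no call.

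The genes most like each member were found by correlating levels over 28 sums of a class and library among 5515 genes with at least 20 CPM in oviduct epithelium. Ovgp1 was most like Dynlrb2 (Pearson's r = 0.95), 1110017D15Rik (0.94) and Ppp2r2c (0.94). AU015791 was most like Sox3 (0.95), Ppp2r2c (0.94) and Pifo (0.92), and Fam107a most like Sox3 (0.94), Kcne3 (0.92) and 1110017D15Rik (0.91). These 3 members shared likenesses with each other, and Gsta3, given below, shared 1110017D15Rik with Ovgp1 and Fam107a. The values rest on the contrast of oviduct epithelium with everything else.

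The other members had looser likenesses. Gsta3 was most like 1110017D15Rik (0.86), Shisa8 (0.84) and Nme5 (0.84), and Hp most like Gsap (0.80), Nuak2 (0.79) and Ceacam1 (0.79). Dbpht2 was most like Acot1 (0.84), Col11a1 (0.81) and Cacna2d1 (0.80). The sums share libraries and depth, so these correlations are descriptions.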

How the data were processed

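UMI counts of single cells from 2 oviduct and 2 uterus libraries were used as deposited. Per the file headers the authors made them with Cell Ranger 6.0.1 (called cells) and 4 (all barcodes), and per the submitters' processing notes with mm10 and Seurat 4.2.3. Whether intronic reads were counted is not given in the sources used here. Barcodes needed at least 500 genes and no more than 15% mitochondrial UMIs, and the highest doublet scores (Scrublet in scanpy 1.11.5, 0.8% per 1000 barcodes) were removed. Cells were classed by at least 3 markers of 14 lists (4 for epithelium), with a handicap of -0.25 on mesenchyme, whose genes many cells share, and clustered into 28 Leiden clusters. UMIs were summed per class and library and tested across all genes with edgeR 4.0.16 (quasi-likelihood, TMM, Benjamini-Hochberg, threshold 0.05), with the library as a block in the Foxj1 split; each class needed at least 20 cells in every library. The code was checked on simulated counts. Poisson, binomial and ratio intervals are exact, at 95%. Limits for a count of 0 use 3 UMIs.

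Per the labels both organs came from the same neonates, without saying which libraries belong together, so no pairing was used. The organ tests thus leave out that the neonates were shared. Deviations of same-numbered libraries correlated at -0.29 to 0.09 by class. With 2 libraries per organ these values cannot show that a pairing is absent. The members and the gene lists were chosen with earlier results of these data known. List genes were named where called, up to 4 of the largest changes per direction, and likenesses by the 3 highest correlations of log2(CPM + 1). Alternatives were DESeq2 1.42.0, other scaling, filters, classes and splits, and each library left out.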

Additional observations from a re-analysis of the deposited data

Results flagged for a closer look

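AU015791 in mesothelium had a log2 difference of -2.31 between oviduct and uterus, the opposite of its direction in epithelium, where both oviduct libraries were higher than both uterine ones. The mesothelial value rests on 6 UMIs in each oviduct library and 3 in each uterine library and was not called (edgeR adjusted p = 0.133). The difference between the 2 classes was not tested.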

How the results depend on the processing

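With 2 libraries per organ, few epithelial cells and shallow uterine epithelium, calls depended on the settings. The Foxj1 split gave 334 calls, against 19 with DESeq2, 129 by library totals, 203 with no replicate block, 126 when split by multiciliated genes, 44 with thinned cells and 139 in the larger deep cluster. The organ comparison of epithelium gave 2955 calls, against 1697 with DESeq2 and 1830 to 2914 when each library was left out. The 7 member calls in other classes became 3 with DESeq2 and 3 to 8 when each library was left out, fewest without uterus 2. With the replicate number as a block, the epithelium gave 2554 calls and the members again 7; the labels do not tie the numbers to animals, and the crossed pairing, chosen after seeing the data, gave 3887 and 7.

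Mean epithelial levels moved by more than 1 SD for Gsta3 (68.0 CPM with doublets kept, 75.5 without the mainly uterine cluster) and AU015791 (42.3 CPM with doublets kept, 54.4 with thinned cells). Ovgp1 in the Foxj1 split was -0.47 in the larger deep cluster, -0.29 without the mainly uterine cluster and -0.30 to 0.57 with 1 library left out (-0.30 without oviduct 1); split by multiciliated genes it was called, at 0.97 (edgeR adjusted p = 0.0428). Gsta3 there was -0.031 by the multiciliated list, -0.46 thinned, -0.25 in the larger deep cluster, -0.21 without the mainly uterine cluster and -0.32 to 0.79 with 1 library left out (-0.32 without oviduct 1). Fam107a was -0.016 by the list and -0.077 thinned, Dbpht2 -0.16 in the larger deep cluster and -0.12 (without oviduct 1) to 1.04 with 1 library left out, AU015791 -0.021 and C3 -0.034 thinned. With 1 library left out, Dbpht2 in pericytes ranged from -0.24 (without uterus 2) to 0.46, Fam107a in endothelium from -0.043 (without uterus 1) to 0.26 and Hp in myeloid cells from -1.60 to 7.13 (without uterus 1). AU015791 also lost its call in the Foxj1 split with no replicate block (edgeR adjusted p = 0.209), by library totals, by DESeq2, by the list, by clusters and with at least 2 Foxj1 UMIs. Ovgp1 in mesenchyme and smooth muscle kept its call in 9 and 7 of 11 alternatives, and Gsta3 in mesenchyme in 7. Settings with the clusters by depth were added after seeing the data. Of 36 values of named list genes, 17 were called in every alternative. The cause of these changes was not tested.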

Other observations

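Genes that lie beside the members were examined after their values had been seen. Of 24 neighbours, 14 were tested between the epithelia, 5 were called and all 5 were higher in the oviduct, against 24.4% called of all genes. Pifo, a gene of ciliated cells 9.534 kb from Ovgp1, was at 48.3 and 30.4 CPM in oviduct epithelium and at 0 and 0.492 CPM in uterine epithelium. The others were Wdr77 (77.0 and 81.3 CPM against 48.7 and 52.2 CPM), Kctd6, Acox2 and 4930452B06Rik.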
